A study of Homo sapiens with 6 samples.

Results

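The 7 large olfactory receptor (OR) gene clusters of human chromosomes 1 and 11 were examined in contact maps of 4 cancer cell lines. They were taken as fixed windows of the genome, defined by their coordinates, and a 40-kb bin of the maps was a member when it lay in one of them. In hg19, the windows of chromosome 11 span 4.35 to 6.25 Mb (11p15), 48.2 to 50 Mb (11p11), 54.9 to 56.7 Mb (11q11), 57.8 to 59.3 Mb (11q12) and 123.6 to 124.5 Mb (11q24). The windows of chromosome 1 span 158.3 to 159.3 Mb (1q23) and 247.5 to 248.9 Mb (1q44). They hold 253 of the 77404 bins of the maps, and 214 of the 414 protein-coding OR genes that the GENCODE annotation places on the autosomes.

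The study profiled how chromosomes fold in cancer cells with in situ Hi-C, which cuts crosslinked chromatin with MboI, joins ends that lie close together in the nucleus and counts each joined pair of reads as a contact. SW480 and SNU-C1 are colon cancer cell lines, HCC1954 is a breast cancer line and OE33 is an esophageal adenocarcinoma line, all untreated. SNU-C1, HCC1954 and OE33 have 1 map each. SW480 has 2 replicate maps and a map that pools them, so the replicates of SW480 are the only measure of spread between libraries, and no test between lines was made.

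OR genes encode the odorant receptors of the nose and form the largest gene family of the human genome. They lie in long arrays of similar genes that lack introns in their coding part. Class I receptors, which resemble those of fish, sit in a single cluster, and all other clusters hold class II receptors. Each olfactory neuron transcribes only one OR allele, and the other copies are packed into heterochromatin, where clusters of different chromosomes gather. In epithelial cells, from which these 4 lines derive, OR genes are mostly silent.

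The windows share a family, not a member. The 11p15 window is the class I cluster, with 57 of its 57 protein-coding OR genes in families OR51, OR52 and OR56, from OR52B4 to OR52W1. The other windows hold class II genes only: 8 in 11p11 (OR4B1 to OR4C13), 48 in 11q11 (OR4A16 to OR5G3), 19 in 11q12 (OR9Q1 to OR4D9), 24 in 11q24 (OR6X1 to OR8A1), 13 in 1q23 (OR10T2 to OR6N2) and 45 in 1q44 (OR2B11 to OR14I1). The most frequent family was OR52 in 11p15 with 27 genes, OR5 in 11q11 with 25 and OR2 in 1q44 with 34.

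A single word of 15 coding bases was present in OR genes of all 7 windows, and it is shown to make the shared ancestry visible. It was found in 17 of the 214 genes (7.94%), and 1 gene of each window is printed here 5′ to 3′ on its coding strand with 12 bases on each side, the shared word in capitals.
OR52M1 (11p15, chr11:4566586-4566624, + strand): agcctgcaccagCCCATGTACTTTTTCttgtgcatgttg
OR4C13 (11p11, chr11:49974128-49974166, + strand): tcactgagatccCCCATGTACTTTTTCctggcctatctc
OR5L1 (11q11, chr11:55579102-55579140, + strand): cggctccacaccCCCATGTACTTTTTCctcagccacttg
OR5B2 (11q12, chr11:58190543-58190581, - strand): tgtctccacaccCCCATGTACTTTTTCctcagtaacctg
OR8B4 (11q24, chr11:124294570-124294608, - strand): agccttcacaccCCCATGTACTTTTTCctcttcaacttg
OR6P1 (1q23, chr1:158533197-158533235, - strand): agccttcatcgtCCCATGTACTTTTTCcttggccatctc
OR2T4 (1q44, chr1:248525138-248525176, + strand): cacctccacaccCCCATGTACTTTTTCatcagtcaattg

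A run of at least 25 coding bases was shared in 15 of the 21 pairs of windows. The longest identical run between windows over their whole sequence had 554 bases, between 11p11 (chr11:49126966-49127519) and 11p15 (chr11:4641516-4642069), in sequence with no annotated protein-coding gene. Such runs bear on the maps, because a read that matches in more than one place cannot be assigned, and between 1.72% of the 50-base words of 11q24 and 5.13% of those of 11p11 recurred in another of the windows. The windows were also poorer in G and C than their chromosomes, with 36.4% in 11q11 to 39.1% in 11q12 beside 41.6% over chromosome 11 and 41.7% over chromosome 1.

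The depth within chromosomes was 133393637 read pairs for SW480 (65990531 and 67372963 in replicates 1 and 2), 115030397 for SNU-C1, 89418954 for OE33 and 93486689 for HCC1954. These counts leave out pairs within a bin. The SW480 map held 28944446 of those, and the maps of the other lines held 0. Between chromosomes it held 351603 read pairs, beside 20001947 in SNU-C1, 51700275 in OE33 and 22857198 in HCC1954. The SW480 map thus differs in make-up, and differences of SW480 from other lines cannot be told apart from it. A bin was used when its coverage reached 0.25 of the median bin in all 4 lines, which 201 of the 253 bins did. The 11p11 window lost most, with 5 of 45 bins left. In SW480, 0 of its 45 bins were without read pairs, whereas 36 were in SNU-C1, 26 in OE33 and 39 in HCC1954, so the values given for 11p11 describe its 5 shared bins around OR4B1, OR4X1, OR4S1 and OR4C3 unless SW480's own bins are named. The remaining windows kept 46 of 47 bins (11p15), 38 of 44 (11q11), 37 of 37 (11q12), 22 of 22 (11q24), 24 of 24 (1q23) and 29 of 34 (1q44). Median coverage of the usable bins differed between windows within a line. In HCC1954 it ranged from 0.371 of the median bin in 11p11 and 0.575 in 11p15 to 1.28 in 11q12, and in SW480 from 0.716 in 1q23 to 1.14 in 11q12. Coverage moves with the number of copies of a region as well as with mappability, and its part in the contact values below was not tested.

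The first question was whether OR clusters of one chromosome touch each other more often than other regions that lie equally far apart. For each of the 11 pairs of windows, the iteratively corrected contacts were summed and divided by the contacts expected at the same distances over all autosomes (observed over expected, O/E). The intervals given with it are exact 95% Poisson limits of the number of read pairs, which take in counting error and nothing else. As a comparison, the same pair of window sizes at the same distance was moved along all autosomes in 200-kb steps. The pairs of 11p11 rest on 5 of its 45 bins, below the 50% of usable bins asked of a moved position. They thus average fewer bin pairs than the positions beside them, and they enter the medians and counts below. The 11 pairs had a median O/E of 2.26 in SW480, 1.86 in SNU-C1, 2.2 in OE33 and 2.11 in HCC1954, while the medians over the moved positions of the single pairs lay between 0.828 and 0.967 in all lines. The median ratio of a pair to its positions was 2.24 in HCC1954, and it fell there to 1.14 with read pairs that were not corrected, to 1.41 without the pairs of 11p11 and to 1.42 with a coverage of at least 0.5 of the median bin. An O/E of at least 1.5 was reached by 9 of 11 pairs in SW480, beside 12.7% of all moved positions. In SNU-C1 it was reached by 8 of 11 pairs (12.4% of positions), in HCC1954 by 6 of 11 (13.4%) and in OE33 by 9 of 11 (15.1%). With no correction the count was 8 in SW480, 4 in SNU-C1, 8 in OE33 and 1 in HCC1954. Bins that share 50-base words are those in which at least 1% of the words recur in another window. Without them, which left 7 pairs, the count was 5, 2, 6 and 3. The 4 pairs of the class I window with class II windows had a median of 2.53 in SW480, 1.98 in SNU-C1, 2.35 in OE33 and 1.94 in HCC1954, and the 6 pairs of class II windows on chromosome 11 had 1.76, 1.57, 2.1 and 1.57. The ranges of both sets overlapped in each line. The windows of chromosome 11 enter several pairs each, so the 11 pairs are not independent of one another.

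**Figure D1:**
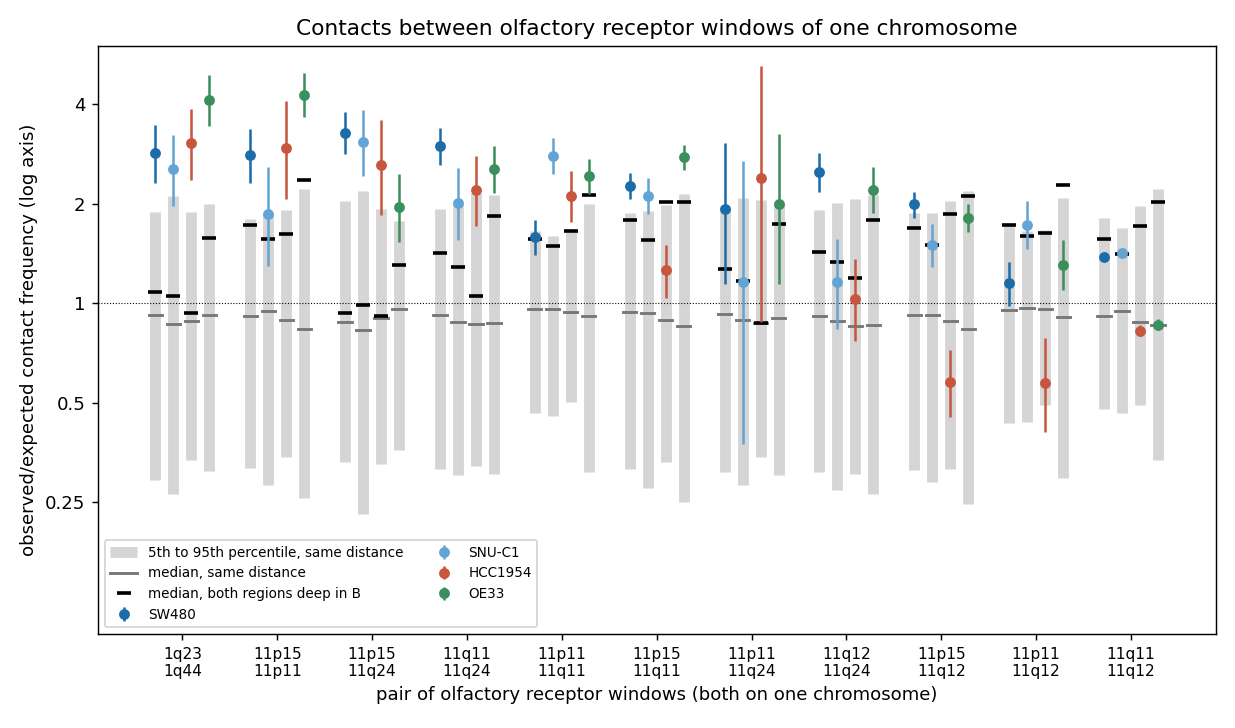
Observed over expected contacts (log axis, no unit) of the 11 pairs of OR windows on one chromosome, in 4 lines. Points are O/E with exact 95% Poisson intervals, grey bars span the 5th to 95th percentile of region pairs of the same sizes and distance on all autosomes, grey ticks mark their median and black ticks the median of those deep in the B compartment. The points of 1q23–1q44 and 11p15–11q24 lie above the grey bar in 4 lines, and 3 pairs of 11q12 in HCC1954 lie below 1.

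The pair 1q23–1q44, the only one of chromosome 1, had the highest median over the lines. Its O/E was 2.85 (2.31–3.47, 99 read pairs) in SW480, 2.54 (1.97–3.22, 68 read pairs) in SNU-C1, 4.12 (3.43–4.9, 126 read pairs) in OE33 and 3.05 (2.36–3.87, 67 read pairs) in HCC1954, at a distance of 89.4 Mb. OE33 was highest, with an interval that overlapped those of SW480 and HCC1954 and not that of SNU-C1. In each line the value was above the 95th percentile of the moved positions. The SW480 replicates differed by 0.72. Without the bins that share 50-base words with other windows, the SNU-C1 value was 1.35. With read pairs that were not corrected it was 1.84 in SW480 and 2.6 in OE33.

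The pair 11p15–11q24 joins the class I cluster near one end of chromosome 11 to a class II cluster near the other end, 118.7 Mb away. Its O/E was 3.28 (2.82–3.79, 183 read pairs) in SW480, 3.07 (2.42–3.84, 77 read pairs) in SNU-C1, 1.95 (1.53–2.46, 71 read pairs) in OE33 and 2.61 (1.85–3.59, 38 read pairs) in HCC1954. SW480 was highest and OE33 lowest, with intervals that did not overlap between these lines. All 4 values were above the 95th percentile of positions. When the expected value was taken from chromosome 11 alone, the O/E was 1.79 in SW480, 1.83 in SNU-C1, 1.72 in OE33 and 1.94 in HCC1954, so SW480 was no longer the highest line. With no correction it was 3.02 in SW480, 2.2 in SNU-C1, 1.36 in OE33 and 1.28 in HCC1954.

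The class I cluster also had contacts above the position median with both windows next to the centromere. With 11p11, 43.8 Mb away, the O/E was 2.8 in SW480, 1.86 in SNU-C1, 4.27 in OE33 and 2.95 in HCC1954, from between 35 and 168 read pairs. With no correction it was 1.26 in SNU-C1 and 1.27 in HCC1954. SW480, whose map covers 41 of the 45 bins of 11p11, gave 2.84 (2.62–3.07, 631 read pairs) when all of its own usable bins entered. With 11q11, 50.5 Mb away, the O/E was 2.26 in SW480, 2.11 in SNU-C1, 2.76 in OE33 and 1.26 in HCC1954, so that HCC1954 was the lowest line. The HCC1954 value turned to 0.718 without the correction.

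Among class II windows, 11q11–11q24 had an O/E of 2.99 in SW480, 2.01 in SNU-C1, 2.54 in OE33 and 2.2 in HCC1954 over 68.24 Mb. The SW480 replicates gave 2.56 and 3.41, a spread close to that between the lines. Without bins that share 50-base words, the SNU-C1 value was 1.04. With no correction it was 1.28 in both SNU-C1 and HCC1954. The pair 11p11–11q11, on both sides of the centromere, had 1.59 in SW480, 2.79 in SNU-C1, 2.42 in OE33 and 2.11 in HCC1954. With no correction these were 1.8 in SNU-C1 and 1.02 in HCC1954. The pair 11p11–11q24 rested on only 18, 5, 16 and 6 read pairs in the same order of lines. The lower ends of its intervals were between 0.375 and 1.14, and the SW480 replicates differed by 2.1.

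The pairs of 11q12, which holds 12 other protein-coding genes beside its 19 OR genes, had the lowest medians over the lines, and HCC1954 was the lowest line in each of them. Its interval overlapped that of SNU-C1 with 11q24 and that of OE33 with 11q11, so its rank in these pairs is not secure. With 11p15 the O/E was 1.99 (1.81–2.17) in SW480, 1.5 (1.29–1.74) in SNU-C1, 1.81 (1.64–1.99) in OE33 and 0.577 (0.454–0.722) in HCC1954. Without bins that share 50-base words it was 1.24 in SW480, 1.08 in SNU-C1, 1.57 in OE33 and 0.555 in HCC1954. With 11p11 it was 1.15 (0.978–1.33) in SW480, 1.73 (1.46–2.04) in SNU-C1, 1.31 (1.1–1.55) in OE33 and 0.574 (0.408–0.784) in HCC1954. HCC1954 was below 1 in both, with intervals apart from those of the other lines. With 11q11, only 2.74 Mb away, the O/E was 1.38 in SW480 and 1.42 in SNU-C1 but 0.826 in HCC1954 and 0.862 in OE33, from 2419 to 5908 read pairs per line. With 11q24 it was 2.49 (2.17–2.84) in SW480, 1.16 (0.838–1.56) in SNU-C1, 2.2 (1.87–2.58) in OE33 and 1.03 (0.768–1.36) in HCC1954. SW480 and OE33 stood apart from the other lines there. The coverage of 11q12 in HCC1954, 1.28 of the median bin beside 0.575 to 0.646 in 11p15, 11q11 and 11q24, moves with these values, and its part was not tested.

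Regions of closed chromatin attract each other at long range, so the pairs were next set beside positions where both regions lay mostly in the B compartment, the part of the genome with few genes and little transcription. The pairs had a median ratio to the median of such positions of 1.77 in SW480, 1.61 in SNU-C1, 1.84 in OE33 and 1.68 in HCC1954, against 2.4, 1.96, 2.57 and 2.24 beside all positions. When the comparison was narrowed to regions deep in B (a compartment score of -1 or less), the ratio was 1.52, 1.19, 1.24 and 1.27 in the same order. The intervals of 1q23–1q44, 11p15–11q24 and 11q11–11q24 lay above the median of deep B positions in 4 of 4 lines, and those of 11p11–11q12 and 11q11–11q12 in 0 of 4. The 11q12 window itself had a mean score above -1 in each line, between -0.862 and -0.298. Its pairs, which also enter the ratios above, were thus set beside regions deeper in B than 11q12. Some single deep B positions reached such values. A value as high was found in 0.382% to 5.47% of them for 1q23–1q44 in 4 lines, in 0% to 11.8% for 11p15–11q24 and in 0.664% to 27% for 11q11–11q24, the highest shares of both latter pairs being in OE33. These 3 pairs were picked by their intervals, and other pairs often had larger shares. The share was 4.86% to 29.4% for 11p15–11p11 and 17.4% to 68.7% for 11p15–11q11. It was 0% to 48.7% for 11p11–11q11, 30.9% to 100% for 11p11–11q12 and 48.3% to 99.8% for 11q11–11q12.

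In 200-kb blocks, 231 of the 335 block pairs between windows of one chromosome reached an O/E of 1.5 in SW480 (69%), beside 27.0% of all block pairs of chromosomes 1 and 11 at the same range of distances. The count was 178 in SNU-C1 (53.1%, beside 26.1%), 197 in OE33 (58.8%, beside 22.1%) and 111 in HCC1954 (33.1%, beside 16.9%). The SW480 replicates gave 59.4% and 63%, below the 69% of their pool. The background share of the replicates was not counted, and the part of depth was not tested. Single bin pairs were sparse. In the 3 pairs with the highest median O/E, no bin pair held more than 4 read pairs in a line. In SNU-C1, the bin pair of 1q23–1q44 with the most, 3 read pairs, joined the bin of MNDA, an interferon-inducible gene, to that of OR2M7 and OR14C36. In SW480, the top bin pair of 11p15–11p11 had 4 read pairs and joined a bin without a protein-coding gene to that of OR4B1.

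**Figure D2:**
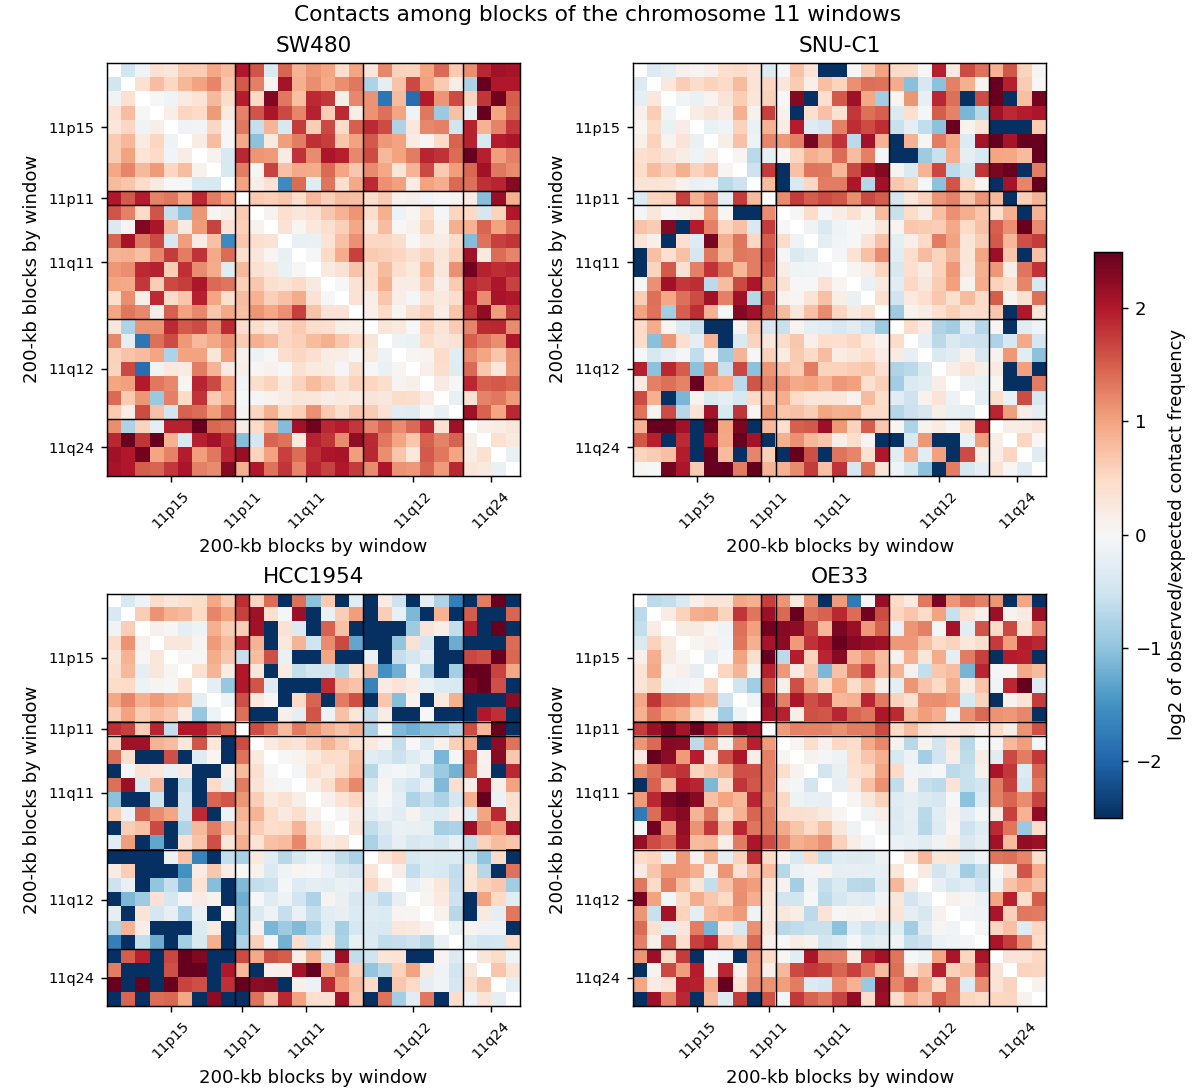
Observed over expected contacts of 200-kb blocks between and within the chromosome 11 windows, 1 panel per line, with blocks in genome order on both axes and colour giving log2 of O/E (red above 0, blue below 0). O/E under 0.125, which includes block pairs with no read pairs, is drawn as 0.125. Blocks of 11p15 and 11q24 are joined by mostly red fields in SW480, where their O/E was 3.28, and the fields of 11q12 with 11p15 are bluer in HCC1954 (0.577) than in SW480 (1.99).

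Within a window, contacts at distances of at least 200 kb were also above the moved positions in most cases. The O/E within 1q44 was 1.4 in SW480, 1.16 in SNU-C1, 1.81 in OE33 and 1.42 in HCC1954. That of 11p15 was 1.38, 1.19, 1.47 and 1.42, and that of 11q11 was 1.49, 1.22, 1.31 and 1.32, in the same order. Position medians were between 0.953 and 0.984. Beside positions deep in B the excess was smaller or absent. In SNU-C1 their median was 1.16 for 11p15, 1.15 for 11q11 and 1.12 for 1q44, with 38.9% to 44.4% of such positions as high, and in OE33 it was 1.27 for 11q11, with 44.8% as high. The 11q12 window was the exception, with 1.14 in SW480 and 0.858, 0.937 and 0.888 in the other lines. A value as high as that of 1q44 was found in 5.84% of positions in SW480, 24% in SNU-C1, 0.696% in OE33 and 6.21% in HCC1954. Across 11p15, 11q11, 11q24 and 1q23 the share was between 3.6% and 38.4%.

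The second question was the compartment of the clusters. The compartment score is the eigenvector of the contact correlation of 200-kb blocks on each chromosome arm, in units of its SD, with the sign set so that gene-dense blocks are positive (A) and gene-poor blocks negative (B). Its Spearman correlation with the density of genes other than ORs was 0.488 to 0.67 over the arms, a description across blocks. Of 47 blocks in the windows, 38 had enough usable bins. All 38 lay in B in SW480, beside 47.1% of all blocks of chromosomes 1 and 11. In OE33, 38 of 38 lay in B (53.3% of all blocks), in SNU-C1 37 of 38 (53.6%) and in HCC1954 37 of 38 (50.1%). A score of -1 or less was found in 32 of the 38 blocks in SW480, 27 in SNU-C1, 29 in OE33 and 27 in HCC1954. The share of all blocks with such a score was not counted, so these numbers stand without a background.

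**Figure D3:**
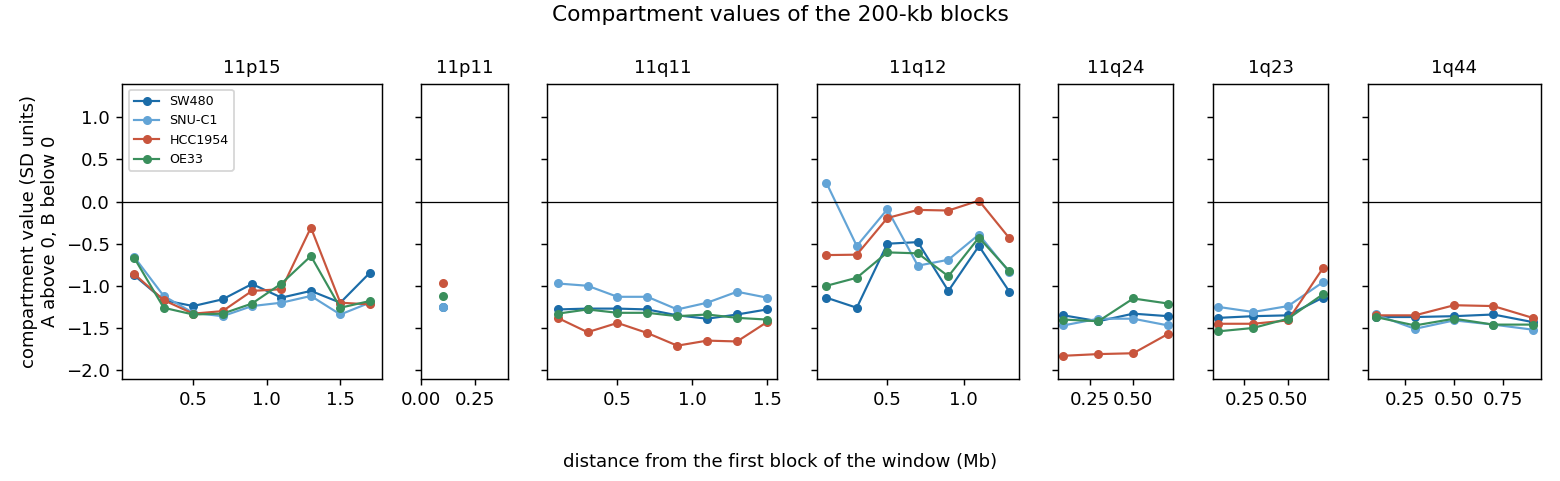
Compartment score (y axis, SD units, A above 0 and B below 0) of the scored 200-kb blocks of each window by distance from its first block in Mb (x axis), with 1 coloured line per cell line and 1 panel per window. Blocks of 11q24 and 1q44 lie below -1 in 4 lines, while those of 11q12 scatter between -1.26 and 0.226.

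The windows 11q24, 1q44, 1q23 and 11q11 had means below -1 in each line. Those of 11q24 were -1.37 in SW480, -1.43 in SNU-C1, -1.29 in OE33 and -1.75 in HCC1954. The means of 1q44 were -1.37, -1.45, -1.43 and -1.31 in the same order, those of 1q23 were -1.31, -1.19, -1.38 and -1.27, and those of 11q11 were -1.31, -1.12, -1.34 and -1.55. The lowest mean was that of 11q24 in HCC1954, while 1q44 was lowest in SNU-C1 and OE33, and in SW480 11q24 and 1q44 had the same mean. The class I window had -1.07, -1.17, -1.1 and -1.05, above these windows except for 11q11 in SNU-C1. Each arm has its own eigenvector and SD, so scores of windows on different arms are not on one scale. Inside it, the block at 5.6 Mb, which holds TRIM22, TRIM34 and TRIM6-TRIM34 of the tripartite motif family, several members of which restrict viruses, had -1.06 in SW480 and -1.12 in SNU-C1 but -0.308 in HCC1954 and -0.646 in OE33. That block was the highest of 11p15 in HCC1954 and OE33. In SW480, in which 8 blocks of 11p11 could be scored with the line's own bins, 8 of 8 lay in B with a mean of -1.25.

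The 11q12 window was the shallowest, with means of -0.862 in SW480, -0.439 in SNU-C1, -0.752 in OE33 and -0.298 in HCC1954. It held both blocks with a positive score. In SNU-C1 this was the block at 57.8 Mb (0.226), where the locus of OR9Q1 lies, and in HCC1954 it was the block at 58.8 Mb (0.0118), which holds DTX4, a ubiquitin ligase of the Deltex family, and MPEG1, which encodes the pore-forming protein of macrophages. HCC1954 thus had the highest mean of 11q12 and, as given above, the lowest O/E of 11q12 with 11p15, 11p11, 11q11 and 11q24. With 11q24 and 11q11 that O/E had an interval that overlapped 1 other line, and a link to the score was not tested. In 1q23, the block at 159 Mb with AIM2, a sensor of DNA in the cytosol, CADM3 and ACKR1 was the highest of its window in every line, at -1.14, -0.957, -1.1 and -0.79.

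Each gene was given the score of its block. Blocks cut by a window edge entered here, though not among the 38. Of the 214 OR genes, 200 lay in a scored block, and 199, 194, 200 and 195 of them were in B in SW480, SNU-C1, OE33 and HCC1954, beside 25.7%, 28.9%, 29.4% and 27.9% of all protein-coding genes of chromosomes 1 and 11. Of 56 other protein-coding genes 51 were scored, and 49, 51, 51 and 46 were in B. The flanks changed quickly at some edges. Before 11p15, 0 of 3 blocks were in B in each line, with a mean score between 0.899 and 1.04, and before 11p11, 0 of 5 blocks were, with a mean between 0.785 and 0.877. Before 1q23, by contrast, 4 of 4 blocks were in B in each line. Over all flanks, 26 of 47 blocks were in B in SW480, 27 in SNU-C1, 25 in OE33 and 25 in HCC1954, between 53.2% and 57.4%. Blocks that lie both after 11q11 and before 11q12 were counted for each of these flanks.

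The third question was whether the clusters are cut by boundaries of topologically associating domains (TADs), the stretches within which contacts are more frequent. The insulation score was the log2 ratio of contacts across a bin within 1 Mb to the chromosome mean. A boundary was called at or near a minimum, with a strength of at least 0.1. The strength is the difference between the highest and lowest slope of the score around that minimum, the slope being the mean over the next 200 kb less that over the previous 200 kb. Of 182 window bins with a score, 7 were boundaries in SW480 (3.85%), beside 4.61% of bins of chromosomes 1 and 11. In SNU-C1 there were 7 (3.85%, beside 4.73%), in HCC1954 9 (4.95%, beside 4.63%) and in OE33 5 (2.75%, beside 4.26%). These shares are near the background of each line. The SW480 replicates had 6 and 7.

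**Figure D4:**
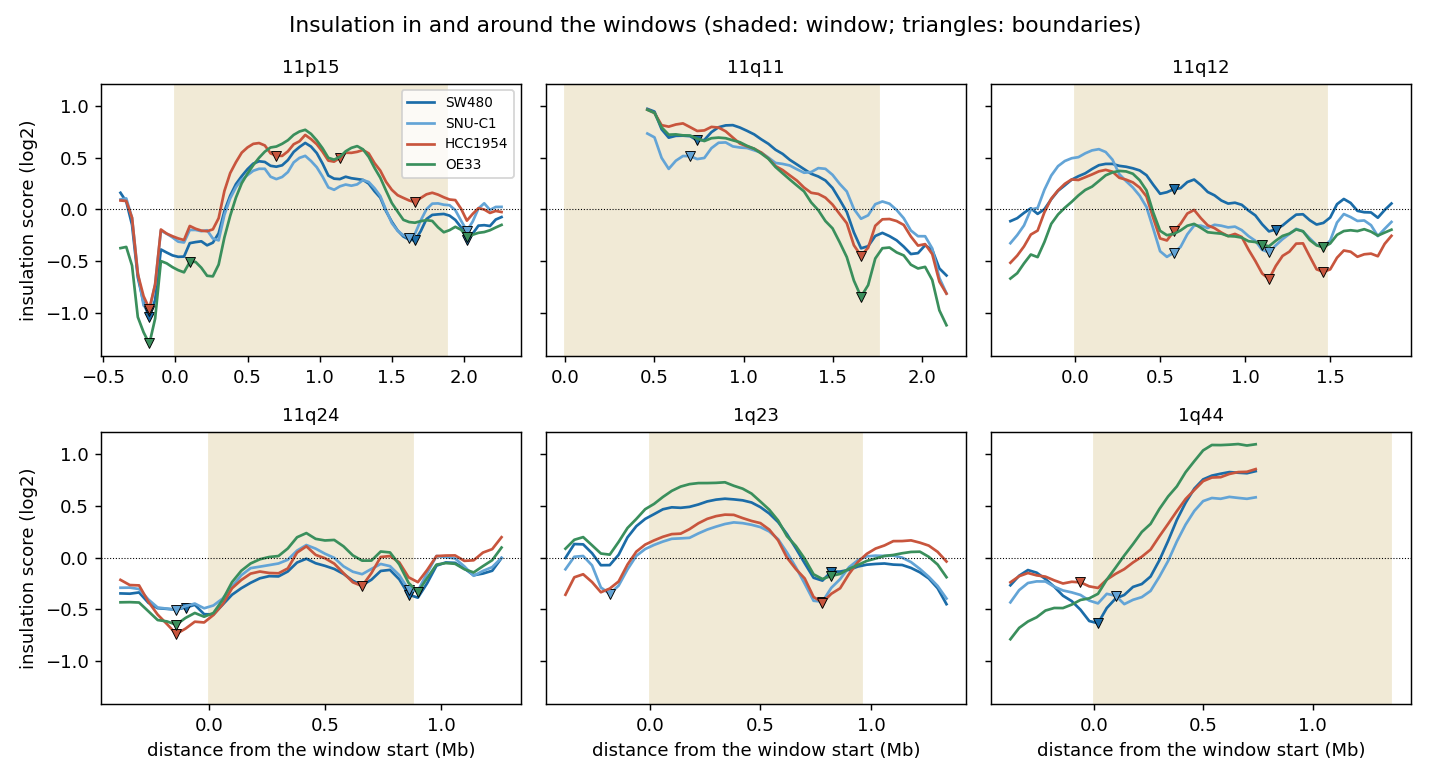
Insulation score (y axis, log2, low values mean few contacts across the bin) by distance from the window start in Mb (x axis) for 6 windows and their surroundings, with 1 coloured line per cell line, the window shaded and triangles at called boundaries; 11p11 had no scored bins. Ahead of 11p15 the 4 lines dip together at the boundary by RRM1, to between -1.29 and -0.956.

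Boundaries within 80 kb of each other were joined across lines, and 4 were found in all 4 lines. The deepest and strongest lay outside the 11p15 window, at 4.16 Mb by RRM1, a subunit of ribonucleotide reductase, with a strength of 1.44 in SW480, 1.19 in SNU-C1, 0.981 in OE33 and 1.34 in HCC1954. The blocks just before that window lay in A, as given above. The second by strength, though not by depth, lay in 1q23 between 159.08 and 159.16 Mb by AIM2, with strengths of 0.666, 0.896, 0.786 and 1.03. It falls past OR6N2, the last OR gene of that window. The others lay between 58.88 and 59 Mb by DTX4 (strength 0.359 to 0.608) and between 123.44 and 123.52 Mb by GRAMD1B (0.409 to 0.841), ahead of the OR genes of 11q24. The nearest gene of each was no OR, and those by RRM1 and GRAMD1B lay outside the windows. Genes other than ORs are the majority, with 1140 beside 177 OR genes on chromosome 11 and 2027 beside 65 on chromosome 1. No trait of the clusters is therefore read from these neighbours.

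The boundary by DTX4 lies in the stretch of other genes between OR5B21 and OR5AN1. Boundaries in bins that hold OR genes were found in fewer lines. One at 5.96 to 6.04 Mb by OR52L1 and OR56A4 was present in SW480 (strength 0.649), SNU-C1 (0.702) and HCC1954 (0.397) and was not called in OE33. At 56.56 Mb, by OR5G3, a boundary was called in HCC1954 (0.576) and OE33 (0.857) only. The one at 124.24 Mb by OR8B2 and OR8B3 was called in HCC1954 alone (0.489). SW480, SNU-C1 and OE33 had one between 124.44 and 124.52 Mb, a range that holds OR8A1 (0.383 to 0.451). At 247.44 to 247.64 Mb, a range with NLRP3 and OR2B11, calls in SW480, SNU-C1 and HCC1954 had strengths of 0.682 to 1.19. Those at 55.6 to 55.68 Mb by OR5D16 (SW480 and SNU-C1) and at 59.24 Mb by OR4D11 (HCC1954 and OE33) were found in 2 lines. Calls at 5.04 and 5.48 Mb (0.128 and 0.167) were made in HCC1954 alone. A call at 4.44 Mb by OR52K2 was made in OE33 alone (0.88). The score there, -0.506, was above the -0.605 of the bin before it, so that bin was not itself a minimum. Whether a call in one line and its absence in another differ beyond the spread between libraries was not tested. Over the 182 bins the insulation scores of different lines correlated with r between 0.795 and 0.893, and those of the SW480 replicates with 0.996, a description over neighbouring bins that share contacts.

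The CTCF protein halts loop extrusion at many TAD boundaries, so the core letters AGGGGGCGC of its motif were searched on both strands. The word was present in 3 of the 8 bins (37.5%) of the boundaries found in 4 lines and in 4 of all 26 boundary bins in or near the windows (15.4%). It was present in 7 of the 201 usable window bins (3.48%), beside 692 of the 8396 usable bins of chromosomes 1 and 11 (8.24%). A match is a description of the letters and shows no binding. The matches by GRAMD1B, in an intron of that gene, and by FAM111A, in an intron of FAM111A and an exon of the noncoding FAM111A-DT, are printed on the strand that holds the word, with the word in capitals. A further match lay in an exon of DTX4.
GRAMD1B (chr11:123466550-123466598, - strand): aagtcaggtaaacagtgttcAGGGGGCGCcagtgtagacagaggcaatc
FAM111A (chr11:58910486-58910534, - strand): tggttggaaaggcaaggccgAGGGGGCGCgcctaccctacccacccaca

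The last question was whether OR clusters of chromosome 1 touch those of chromosome 11. The SW480 map held 0 read pairs between these windows and only 328346 between different autosomes, so it was not used. The expected value was the mean of all bin pairs of chromosomes 1 and 11. Over the 10 pairs of windows together, the O/E was 1.77 (1.45–2.15, 104 read pairs) in SNU-C1, 1.19 (1–1.41, 139 read pairs) in OE33 and 1.26 (0.95–1.65, 54 read pairs) in HCC1954. Region pairs of the same sizes that lay mostly in B averaged 1.04, 0.914 and 0.869. The interval of SNU-C1 lay above 1 and that of OE33 began at 1, and the values moved with the processing. Without the correction it was 1.23 in SNU-C1, 0.808 in OE33 and 0.709 in HCC1954, and without bins that share 50-base words it was 1.37 in SNU-C1.

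**Figure D5:**
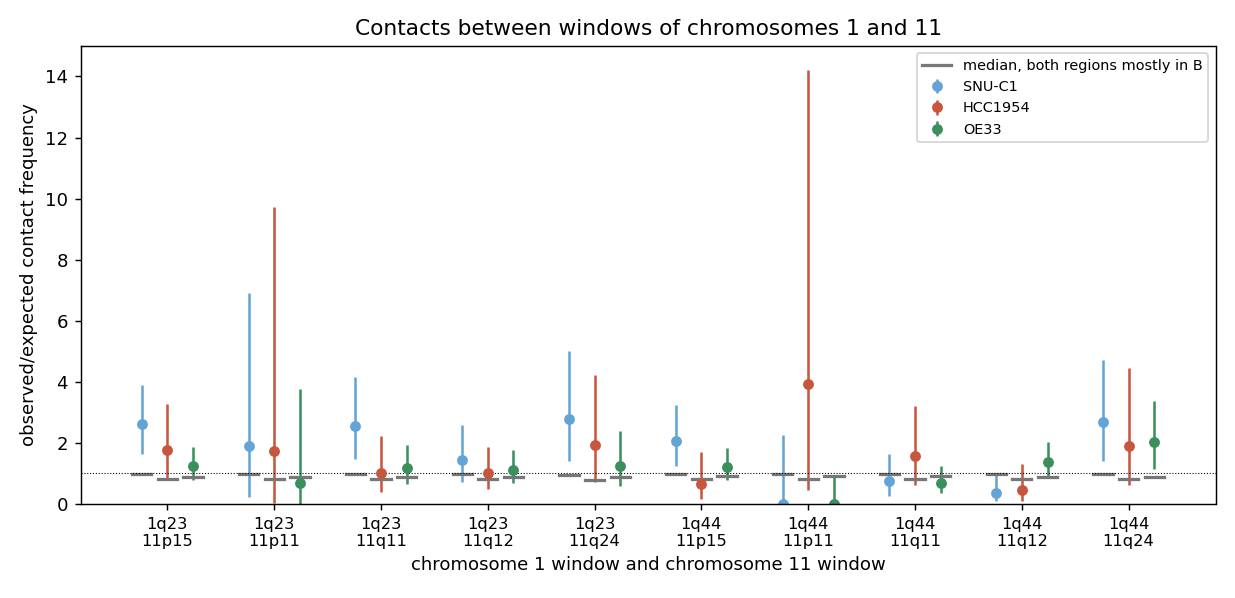
Observed over expected contacts (y axis, linear, no unit) of the 10 pairs of a chromosome 1 window with a chromosome 11 window, in 3 lines. Points are O/E with exact 95% Poisson intervals, and grey ticks are the median of region pairs of the same sizes mostly in B. The limits of 1q44–11p11 in SNU-C1 and OE33, which had 0 read pairs, are not exact Poisson limits. Most intervals include 1, and the widest, of 1q44–11p11 in HCC1954, reaches 14.2.

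Single pairs between the chromosomes had few read pairs, from 0 to 24. An O/E of at least 1.5 was reached by 6 of 10 pairs in SNU-C1 (beside 16.2% of all positions of the 2 chromosomes), 1 of 10 in OE33 (9.79%) and 6 of 10 in HCC1954 (15.8%). In SNU-C1, 1q23 had 2.61 (1.65–3.91, 23 read pairs) with the class I window, 2.55 (1.46–4.15, 16 read pairs) with 11q11 and 2.8 (1.4–5, 11 read pairs) with 11q24. The 1q44 window had 2.08 (1.25–3.24) with 11p15 and 2.7 (1.4–4.72) with 11q24 in that line, but 0.376 (0.102–0.963) with 11q12. Without bins that share 50-base words, the SNU-C1 values of 1q23 were 0.635 with 11p15, 0 with 11q11 and 0 with 11q24, while those of 1q44 were 2.86 with 11p15 and 5.31 with 11q24. That setting left out 15 of 24 bins in 1q23 and 19 of 34 in 1q44. It also left out 28 of 47 in 11p15, 30 of 44 in 11q11 and 9 of 22 in 11q24. The read pairs left were not counted, so lost depth and shared sequence cannot be told apart.

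In HCC1954 all 10 intervals included 1, and the highest value, 3.93 of 1q44–11p11, came from 2 read pairs. In OE33 the pair 1q44–11q24 had 2.04 (1.14–3.37, 15 read pairs), and the remaining pairs were between 0 and 1.37. The pair 1q44–11q24 was thus 2.7, 2.04 and 1.91 in SNU-C1, OE33 and HCC1954. The pair 1q44–11p11 had 0 read pairs in SNU-C1 and OE33. An exact limit could not be scaled from that number, so no upper limit is given for it.

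OR clusters of other chromosomes, taken from the annotation as 5 or more OR genes with gaps of at most 500 kb, served as further partners of the 7 windows. Together they gave an O/E of 1.26 (1.12–1.42) in SNU-C1, 1.08 (0.993–1.18) in OE33 and 1.13 (0.985–1.29) in HCC1954. The pools include the chromosome 11 cluster from OR2AG2 to OR2D3 with the chromosome 1 windows, which had 2, 6 and 0 read pairs. Positions mostly in B averaged 1.18, 0.966 and 1.05, within the interval of SNU-C1 and HCC1954 and below that of OE33. The cluster of chromosome 14 from OR11H2 to OR6S1 had 1.33 (0.968–1.79), 1.65 (1.37–1.97) and 1.55 (1.15–2.05) with the windows, in the order SNU-C1, OE33 and HCC1954. That of chromosome 12 from OR9K2 to OR10P1 had 1.89 (1.32–2.62), 1.54 (1.19–1.96) and 1.49 (0.866–2.38). Both were above 1 in 3 of 3 lines. They were picked after their values were seen. Of 13 such clusters on chromosomes other than 1 and 11, the 2 of chromosomes 6 and 15 had no usable bins. Of the remaining 11 clusters, 4 had a value above 1 in each line and 3 a value below 1 in each line. The former include 2 of chromosome 9, from OR13F1 to OR13D1 with 1.53, 1.22 and 1.21, and from OR1J1 to OR1K1 with 1.7, 1.01 and 1.08. Their intervals included 1, except that of OR1J1 to OR1K1 in SNU-C1 (1.16–2.42). Positions mostly in B averaged 1.21, 0.993 and 1.08 beside the first and 1.23, 1 and 1.1 beside the second. The clusters below 1 were the chromosome 19 cluster from OR10H2 to OR10H4, with 0.278, 0.665 and 0.462, that from OR7C1 to OR1I1, with 0.879, 0.84 and 0.614, and the chromosome 17 cluster from OR1D5 to OR1E2, with 0.906, 0.494 and 0.906.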

How the data were processed

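In situ Hi-C maps of SW480 (2 replicates and their pool), SNU-C1, HCC1954 and OE33 (1 map each) were analysed. MboI was the restriction enzyme. BWA-MEM (hg19) and Picard served the authors for alignment and duplicate removal, in versions not given in the sources used here, and in-house matrices were iteratively corrected. Each deposited value is a signal, a contact frequency after correction between 2 bins of 40 kb, and the deposited bin numbers are labels. The methods state that each line was analysed in duplicate, and whether the single maps pool libraries is not stated.

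Read pairs were recovered by fitting a factor per bin (45 iterations, pairs at least 5 Mb apart), after which 98.09% to 99.97% of values up to 20.5 read pairs were within 0.02 of a whole number. These gave the depth, the coverage and the 95% intervals, which cover counting error only. Expected values were means per distance over usable autosomal bin pairs, smoothed beyond 5 Mb over 10% of the distance. Moved positions needed at least 50% usable bins, and 200-kb blocks needed 3 usable bins. Gene positions came from GENCODE, lifted to hg19. Genes were named as the first and last OR gene of a window, those of the bin pairs with the most read pairs in the 3 highest window pairs, those nearest to boundaries found in 4 lines, and a list of 30 other genes, of which 26 were annotated in the windows; other genes were named after their values were seen. The windows, lists and comparisons were chosen with earlier results of these data known. Alternatives without 11p11, and with SW480's own bins, were chosen after seeing the data. Steps were tested on simulated data. The software was Matplotlib 3.10.9, Numba 0.67.0, pysam 0.24.0, pandas 2.3.3, SciPy 1.17.1 and NumPy 2.4.6 under Python 3.11.15.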

Additional observations from a re-analysis of the deposited data

Results flagged for a closer look

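Every pair below involves the 11q12 window, and each was picked out because its interval lay above 1 in at least 1 line and below 1 in another, so that lines moved in opposite directions. The difference between lines was not tested. For 11p15–11q12, O/E was 1.99 in SW480, 1.5 in SNU-C1, 1.81 in OE33 and 0.577 in HCC1954. For 11p11–11q12 it was 1.15 in SW480, 1.73 in SNU-C1, 1.31 in OE33 and 0.574 in HCC1954. For 11q11–11q12 it was 1.38 in SW480, 1.42 in SNU-C1, 0.862 in OE33 and 0.826 in HCC1954. With SW480's own bins, its value for 11p11–11q12 was 0.952. With the expected value of chromosome 11 alone, the HCC1954 value for 11p15–11q12 was 0.755.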

How the results depend on the processing

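The median ratio of the 11 pairs to moved positions was 2.4 in SW480, 1.96 in SNU-C1, 2.57 in OE33 and 2.24 in HCC1954. It moved to 2.72 in SW480 and 1.41 in HCC1954 without the 11p11 window, to 2.72 and 1.42 with a coverage of at least 0.5 of the median, and to 2.07, 1.14 and, in OE33, 2.03 with no correction. It was 1.91 in SW480 with the expected value of the same chromosome and 1.6 in HCC1954 without bins sharing 50-base words. Leaving out a replicate of SW480 gave 2.49 to 2.72. The share of blocks in B was 100% in SNU-C1 and HCC1954 with 400-kb blocks, and in HCC1954 81.6% with an eigenvector over the whole chromosome and 100% with the higher coverage. Between chromosomes, the O/E was 1.23, 0.808 and 0.709 in SNU-C1, OE33 and HCC1954 with no correction, 1.37 in SNU-C1 without bins sharing words, and 0 in all 3 lines as a median over block pairs, most of which hold no read pair. Among single pairs whose interval lay off 1, those that turned to the other side of 1 were, as block medians, 0 for 1q23–11p15, 1q23–11q11, 1q23–11q24, 1q44–11p15 and 1q44–11q24 in SNU-C1 and for 1q44–11q24 in OE33. Without bins sharing words 1q23–11p15, 1q23–11q11 and 1q23–11q24 were 0.635, 0 and 0 in SNU-C1, 11p15–11q11 was 0.718 in HCC1954 with no correction, and 11p11–11q24 was 0.859 to 2.96 in SW480 when a replicate was left out. The causes were not tested. Of 403 values of single pairs under an alternative, 347 stayed on the same side of 1, and 304 moved by less than the counting interval or replicate spread. No paired analysis was possible because the lines compared share fewer than 2 replicate numbers. Depth limits the pairs between chromosomes, with at most 24 read pairs each.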
